A study of Rattus norvegicus with 30 samples.

Results

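The comparison described here set 0.5 mM sodium valproate against its vehicle, water, after 48 h of exposure in primary rat hepatocytes, over every probeset of a 1-colour oligonucleotide array. Its members are the 5 cultures labelled 0.5 mM and the 5 labelled water at 48 h, 10 of the 30 samples of the series. Every culture, the controls included, was grown from frozen hepatocytes of male Sprague Dawley rats bought from one supplier, and no genetic change is named in the labels. The cells were plated on collagen, covered with Matrigel and dosed on day 3. The same dose and its own water controls at 24 h (5 cultures each) and 10 mM valproate at 48 h (5 cultures) are used only to set the 48 h effect beside another time and another dose. Each culture was 1 well, called independent in the labels, and the sources used here do not give the number of donor rats. The p-values therefore cover differences between wells and not between animals. RNA came from whole wells, so fewer cells of a type and less RNA per cell cannot be told apart.

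Valproate is an antiepileptic drug whose carbon skeleton is that of a branched fatty acid. Hepatocytes join it to coenzyme A and to carnitine and oxidise part of it in mitochondria, so it competes with fatty acids for the same carriers and enzymes. PPARalpha is the nuclear receptor that senses fatty acids in liver and switches on genes for their uptake, their beta-oxidation in mitochondria and peroxisomes, and their omega-hydroxylation by CYP4A enzymes. Valproate is also a known inhibitor of histone deacetylases, the enzymes that remove acetyl groups from histones.

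The treated arrays differed among themselves in the control ratios that serve as a check of RNA quality. The array carries control probesets at the 3' end and the 5' end of beta-actin, and the log2 ratio of their signals is higher for RNA that is broken. In the 5 treated cultures, in the order of their replicate numbers, that ratio was 1.32, 1.05, 2.76, 2.22 and 1.74. In the 5 water cultures it was 1.33, 1.22, 1.20, 1.21 and 1.20. Treated replicates 3, 4 and 5 lay above every water culture, and treated replicate 2 lay below them all. The 5' signal moved far more than the 3' signal: it ran from 6903 to 23139 in the treated arrays and from 20404 to 22968 in water, while the 3' signal ran from 46971 to 52797 and from 46813 to 53285. The ratio was 1.82 ± 0.69 (SD, n = 5) with valproate and 1.23 ± 0.06 in water, a difference of 0.59 (two-sided exact permutation test, p = 0.135). The same ratio for GAPDH was 0.27 ± 0.13 with valproate and 0.11 ± 0.03 in water, a difference of 0.16 (two-sided exact permutation test, p = 0.0476).

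**Figure D1:**
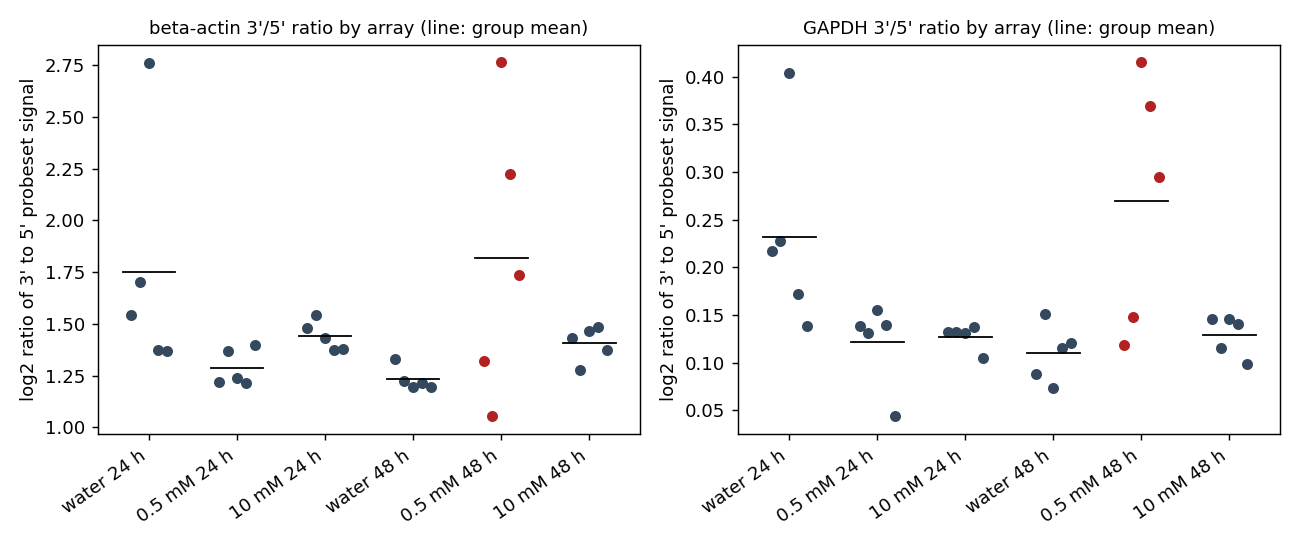
Log2 ratio of 3' to 5' control probeset signal of beta-actin (left) and GAPDH (right) for each of the 30 arrays by group; points are arrays and lines are group means. The 0.5 mM arrays of 48 h (red) spread from 1.05 to 2.76 for beta-actin, against 1.20 to 1.33 in water at 48 h, and 1 water array of 24 h stands at 2.76.

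Every list count and named change was computed under 3 settings: with all arrays, without treated replicates 3 and 4 (the pair of highest actin ratio), and with the actin ratio as a covariate. The fit without the pair kept treated replicate 5, whose actin ratio of 1.74 also lay above every water culture of 48 h. A gene called in the same direction under all 3 settings is described as held. The GAPDH ratio as a covariate is not part of that rule, and of 115 called genes named here it kept the call of 89, ended it for 24 and turned the sign of 2. An array outside the comparison, replicate 3 of water at 24 h, had an actin ratio of 2.76 too, and its difference from the other 4 water arrays of that time shows which probesets read high or low in a culture with no drug. That array was among the 30 of the covariate fit and so helped decide which genes are held. The contrast between held and other genes below is therefore partly built in and is no independent check. Among all 11604 genes tested that difference had a median of 0.09 on the log2 scale. Among genes called higher at 48 h but not held it was 0.32 and lay above 0 for 86.6% of them, and among those called lower but not held it was -0.26 and lay above 0 for 18.8%. Among held genes it was 0.11 for higher and -0.04 for lower genes. Across genes, the change at 48 h and this difference had Pearson's r = 0.30 and Spearman's rho = 0.31 (11604 genes of the same arrays, which are not independent replicates), and r = 0.15 and rho = 0.16 without the pair.

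**Figure D2:**
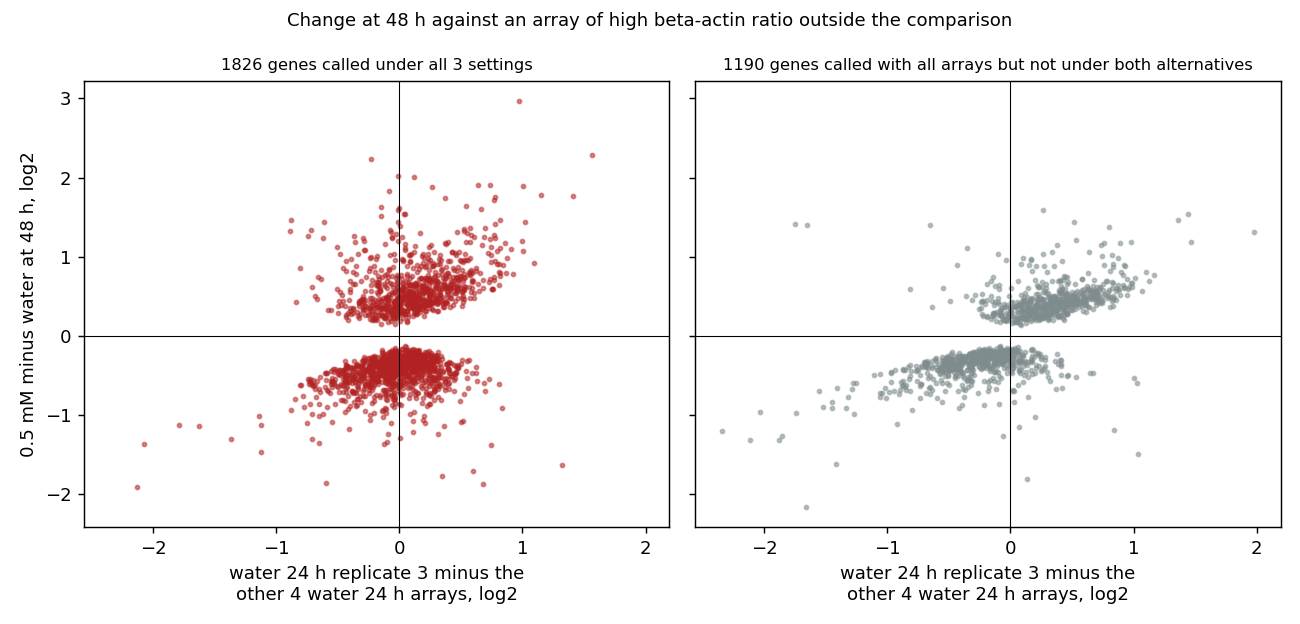
Each point is a gene called at 48 h. The y axis is its change (0.5 mM minus water, log2) and the x axis its difference between water 24 h replicate 3 and the other 4 water arrays of 24 h (log2), for the 1826 held genes (left) and the 1190 genes called with all arrays but not held (right). The genes that were not held lean to the right above 0 and to the left below 0. The water 24 h array was also in the covariate fit that helps define held genes, so this lean is partly built in.

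Of 11 tested hepatocyte markers 4 were higher and 1 was lower (Tat, the tyrosine aminotransferase) with valproate, against 11.9% and 14.1% of all genes tested. Leaving out any 1 of water replicates 2 to 5 gave 2 higher. Their signal summed to 458917 to 521191 in water and 528336 to 563504 with valproate. The hepatocyte markers stood between the 86.2th percentile of tested genes in water at 48 h (Hnf4a, a liver transcription factor) and the 99.9th (Alb, the albumin gene). Alb itself ran from 66908 to 75361 signal units in water and from 72767 to 82440 with valproate, and its change of 0.12 ± 0.08 (SE, log2 scale) did not pass the test (adjusted p = 0.315). Of 12 tested Kupffer cell markers 0 were higher and 1 was lower (C1qb, -1.37 ± 0.41), and of 12 stellate cell markers 0 passed. Of 7 endothelial markers Lyve1 was higher (0.68 ± 0.22) and Flt1 lower (-1.27 ± 0.42), and neither passed without treated replicates 3 and 4. Of 7 biliary markers Prom1 was lower (-0.56 ± 0.18). C1qb lost its call with array weights and without replicate 2 of either group. Prom1 lost its call with the GAPDH ratio as a covariate, in a fit of only the compared groups, and without treated replicate 2 or water replicate 3 or 4. The Kupffer markers summed to between 26241 and 29427 signal units in water and between 28078 and 33618 with valproate, and the stellate markers to 16890 to 19829 and 17776 to 21423. Endothelial markers summed to 2403 to 2785 in water and 2449 to 2994 with valproate, and the biliary markers to 13777 to 15302 and 11309 to 14065. Adgre1, Cd163, Laptm5 and Ptprc of the Kupffer list and Emcn, Flt4, Pecam1, Stab1, Tie1 and Vwf of the endothelial list were too dim to be tested. The part of other cells in the results below was not tested.

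With all arrays, 2216 of 21729 probesets (10.2%) were higher and 2581 (11.9%) lower with 0.5 mM valproate at 48 h (limma, adjusted p under 0.05). By gene, 1383 (11.9%) were higher and 1633 (14.1%) lower of 11604. Without the pair 874 (7.53%) were higher and 1204 (10.4%) lower, and with the covariate 997 (8.59%) and 1452 (12.5%). Under all 3 settings 794 genes (6.84%) were higher and 1032 (8.89%) lower. By size, 126 genes (1.09%) rose and 50 (0.431%) fell by at least 1 on the log2(signal + 16) scale, on which all changes below are given. In 803 genes (6.92%) all 5 treated values lay above all 5 water values, and in 948 (8.17%) all lay below.

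Genes of fatty acid oxidation rose in both the mitochondrion and the peroxisome. Of 24 tested mitochondrial beta-oxidation genes 19 were higher and 1 lower, with a median change of 0.45 against -0.01 over all genes tested. Without the pair the counts were 18 and 0. Of 23 peroxisomal genes 15 were higher and 1 lower, with a median of 0.41, and the 15 and 0 of the fit without the pair were also found with the covariate. The signal of the mitochondrial list summed to 336684 to 382351 in the water cultures and 464181 to 512455 in the treated cultures, with no overlap.

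**Figure D3:**
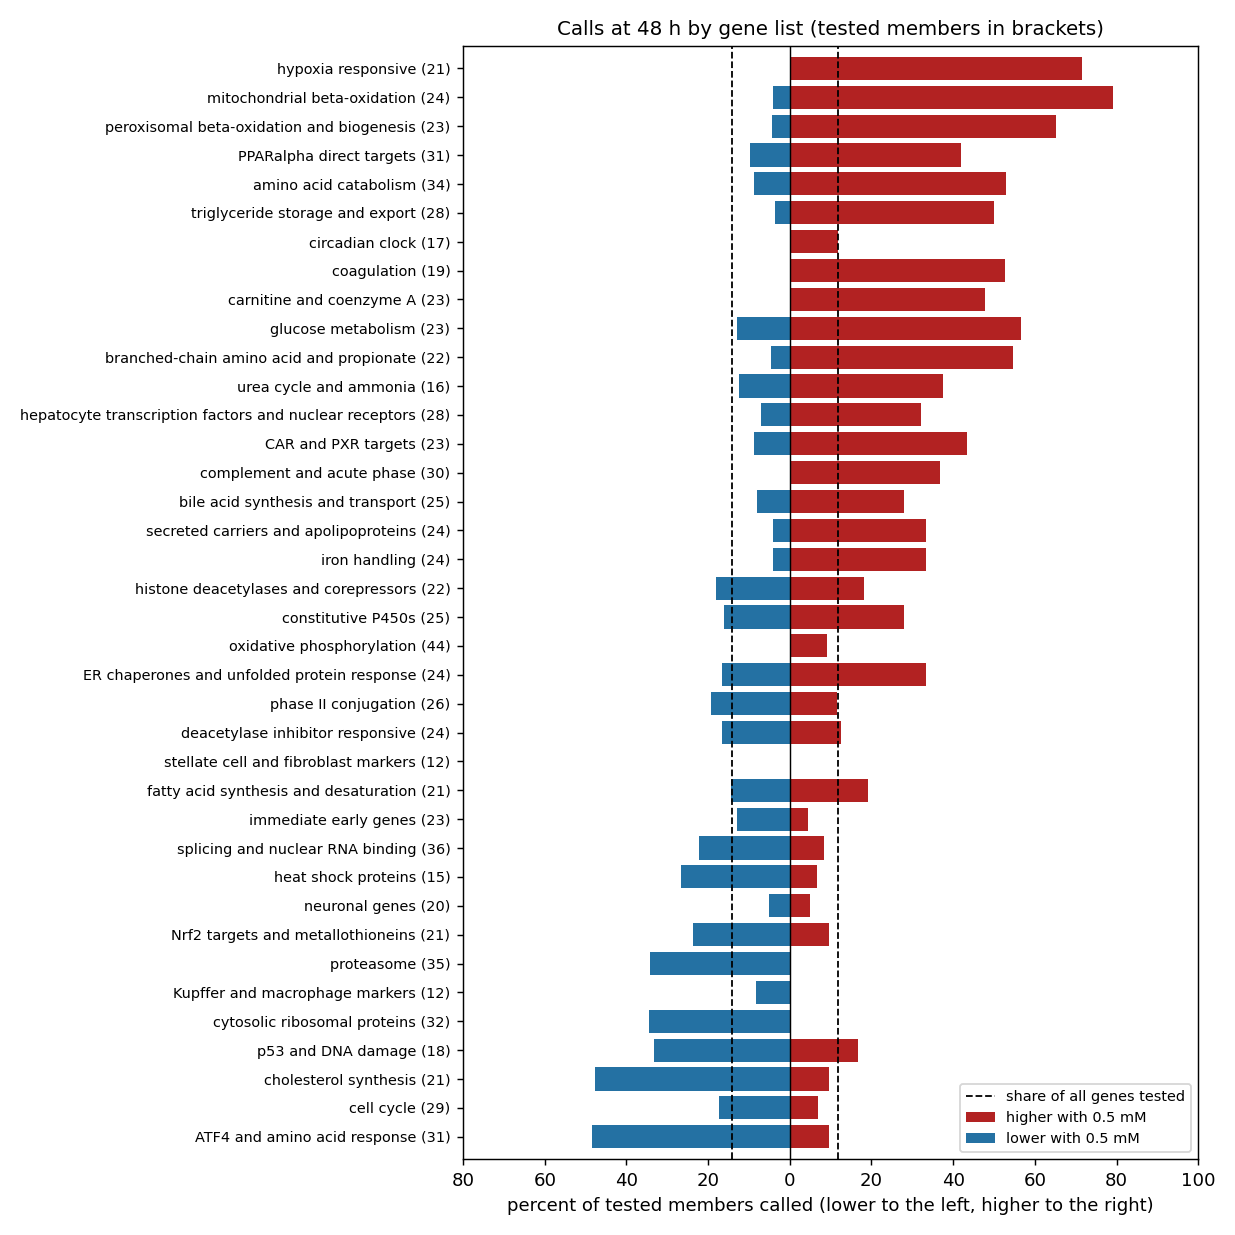
Percent of the tested members of each gene list called higher (red, to the right) or lower (blue, to the left) with 0.5 mM valproate at 48 h, ordered by median change; the number of tested members is in brackets and the dashed lines are the shares over all genes tested, 11.9% and 14.1%. Hypoxia responsive, mitochondrial and peroxisomal lists stand at the top, and the ATF4 list at the bottom.

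Ehhadh, the peroxisomal enzyme that carries out the hydration and dehydrogenation steps of beta-oxidation, had the largest rise of the fat oxidation genes. Its signal was 2822, 1899, 2586, 2439 and 2245 in the water cultures and 9479, 9625, 11368, 12758 and 13456 with valproate. The lowest treated culture lay above the highest water culture by more than the whole spread of the water group. The change was 2.23 ± 0.12 (adjusted p = 1.29e-14), and 2.16 without the pair. Cyp4a1, a microsomal omega-hydroxylase of fatty acids and a classic PPARalpha target of rat liver, read 11612, 11172, 10755, 10385 and 9742 in water and 34249, 33728, 31183, 31291 and 31441 with valproate. Its groups were also far apart, with a change of 1.59 ± 0.08 (adjusted p = 1.4e-15) and 1.63 without the pair. Treated replicates 3, 4 and 5, all of raised actin ratio, read lower than replicates 1 and 2.

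Within the mitochondrion rises were found in activation, carnitine transfer and several steps of the chain. Acsl1, which activates long-chain fatty acids to their CoA esters, read 12648 to 13668 in water and 23171 to 27006 with valproate (0.96 ± 0.07, adjusted p = 5.91e-11). Acadm, the medium-chain dehydrogenase, read 9990, 9866, 10094, 10108 and 9623 in water and 20856, 18308, 16632, 16650 and 17498 with valproate (0.85 ± 0.08, adjusted p = 9.79e-10). Hadha, the alpha subunit of the trifunctional protein, read 9327, 8593, 7715, 8821 and 8387 in water and 13109, 13221, 19683, 16837 and 16600 with valproate (0.88 ± 0.08, adjusted p = 2.37e-09). None of these groups overlapped, but the pair of arrays pulled in opposite directions: treated replicates 3 and 4 were the lowest of the group for Acadm and the highest for Hadha. Without them the changes were 0.92 and 0.73. Acsm3, a medium-chain acyl-CoA synthetase, rose by 1.18 ± 0.13 (adjusted p = 3.77e-08), and Cpt2, which releases acyl-CoA from carnitine inside the mitochondrion, by 0.50 ± 0.09 (adjusted p = 0.000135). The one lower member was Dld, a subunit shared by several dehydrogenase complexes, at -0.39, which was not held.

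**Figure D4:**
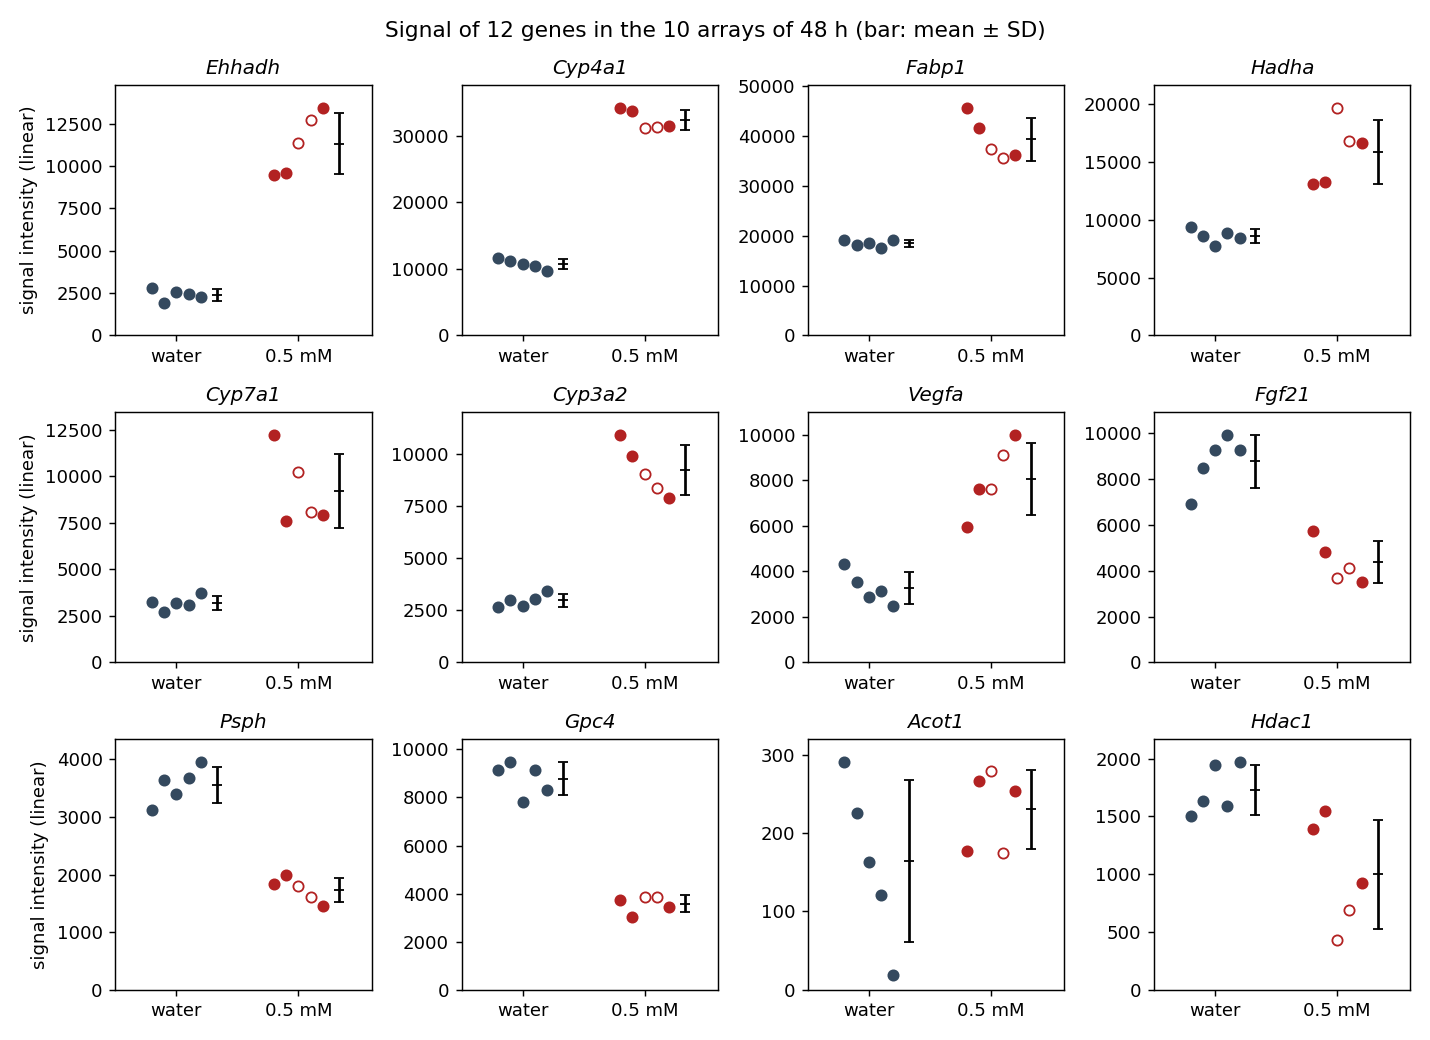
Linear signal of 12 genes in each of the 10 cultures of 48 h, with the mean ± SD (n = 5) at the right of each group; open circles are treated replicates 3 and 4, the pair of highest actin ratio. Ehhadh, Cyp4a1, Fabp1, Hadha, Cyp7a1, Cyp3a2 and Vegfa are higher and Fgf21, Psph and Gpc4 lower with no overlap, Acot1 overlaps, and the open circles are the lowest values of Hdac1.

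In the peroxisome the other leading members were Acox2, the oxidase of branched chains and bile acid precursors (1.01 ± 0.10, adjusted p = 1.6e-08), Decr2, a reductase for unsaturated chains (0.82 ± 0.10, adjusted p = 3.41e-07), Ech1, an isomerase of double bonds (0.74 ± 0.06, adjusted p = 3.22e-10), and Acot8, a thioesterase (0.66 ± 0.08, adjusted p = 1.66e-07). In all 4 the treated and water values did not overlap and the call was held. The lower member was the import factor Pex2 at -0.18, which was not held.

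The PPARalpha targets did not rise as a block. Among 31 tested members 13 rose and 3 fell, the median was 0.36, and without the pair 12 and 3. The median was 0.30 without the pair and 0.19 with the actin ratio as a covariate, and leaving out treated replicate 1 or 3 gave 5 or 6 lower members. Besides Ehhadh and Cyp4a1 the largest rises were in Cpt1b, the muscle form of carnitine palmitoyltransferase (1.39 ± 0.10, adjusted p = 6.19e-12), and Fabp1, the liver fatty acid binding protein. Fabp1 read 19180, 18172, 18529, 17537 and 19037 in water and 45686, 41663, 37377, 35652 and 36144 with valproate, with no overlap (1.08 ± 0.12, adjusted p = 3.62e-08). Of the 26 members with a promoter entry it was the one with a PPAR-type direct repeat upstream of its start. The search used a DR1 element, a repeat of AGGTCA after a spacer of 1 base with 1 free position in the first copy, on both strands of the 250 bases before the RefSeq start site (build GRCr8), and 0.0929% of 9693 tested genes with a promoter entry held a match. The stretch below lies at chr4:104749239-104749298 on the plus strand, with the match, here read on the minus strand, in capitals from base 77 to base 65 before the start.
Fabp1: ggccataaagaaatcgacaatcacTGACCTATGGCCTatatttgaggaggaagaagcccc

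Several of the best known members of the same list were not called higher. Plin2, the coat protein of lipid droplets, read 46665 to 52163 in water and 47654 to 51849 with valproate, a change of 0.01 ± 0.06 (adjusted p = 0.918). Cpt1a, the liver form of the carnitine palmitoyltransferase that admits fatty acids to the mitochondrion, was at 0.04 ± 0.12 (adjusted p = 0.868), with -0.20 without the pair. Pdk4, the kinase that shuts off pyruvate oxidation, was at -0.20 ± 0.10 (adjusted p = 0.147), and Acot1, a cytosolic thioesterase, at 0.74 ± 0.33 (adjusted p = 0.112) from a mean log2 level in water of 7.18, under the level of the filter (7.39). These 4 had groups that overlapped. Without water replicate 1, its highest water culture at 290.7 signal units, Acot1 was called higher (1.01, adjusted p = 0.0241). The 3 lower members were Fgf21, a hormone of fasting (-1.01 ± 0.12, adjusted p = 2.91e-07), Angptl4, an inhibitor of lipoprotein lipase (-0.28 ± 0.07, adjusted p = 0.00532), and Cd36, a fatty acid transporter at -0.84, which was not held. Fgf21 read 6917, 8490, 9269, 9940 and 9294 in water and 5762, 4810, 3671, 4122 and 3525 with valproate, so that no treated culture reached the lowest water culture.

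Some genes that supply and spend the carriers of acyl groups also moved upward. Of 23 tested carnitine and coenzyme A genes 11 were higher and 0 lower, and 8 and 0 without the pair. Their median was 0.24, or 0.15 without the pair and 0.23 with the covariate. For 10 of the 23 the highest treated culture was replicate 3. Pank1, the kinase that commits pantothenate to coenzyme A, read 12006 to 13477 in water and 18508 to 25013 with valproate (0.80 ± 0.08, adjusted p = 4.76e-09), and Acsm2, another medium-chain synthetase, rose by 0.57 ± 0.12 (adjusted p = 0.000903). Ketone body genes numbered 6, with a median of 0.33, or 0.25 without the pair and 0.13 with the covariate. Of these 6, 3 were higher with all arrays and 2 in either other setting. They included Bdh1, which turns acetoacetate into hydroxybutyrate, at 1.43 ± 0.18 (adjusted p = 4.95e-07), and Acat1, the thiolase at the start of that pathway, at 0.47 ± 0.06 (adjusted p = 6.78e-07). Of 28 genes of triglyceride storage and export 14 were higher and 1 lower, and 9 and 1 without the pair. The median was 0.31 with all arrays, 0.15 without the pair and 0.10 with the actin ratio as a covariate. Treated replicate 3, of the highest actin ratio, was the highest treated culture for 19 of the 28. Lpin2, a phosphatidate phosphatase (1.36 ± 0.14, adjusted p = 2.44e-08), Apob, the structural protein of very low density lipoprotein (0.63 ± 0.08, adjusted p = 4.27e-07), and Gpam, which starts glycerolipid synthesis (0.61 ± 0.12, adjusted p = 0.000492), were held. Apob had 2 tested probesets, of which 1 was called higher. Its treated replicates 3, 4 and 5, of raised actin ratio, read 65928 to 76021, against 58216 and 50493 in replicates 1 and 2. Plin4, a droplet coat protein with the largest change of that list (1.58 ± 0.42, adjusted p = 0.00591), lost its call without the pair (1.39, adjusted p = 0.059), and treated replicate 1 stood apart at 199 signal units against 516 to 648 in the others.

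Genes known to respond to low oxygen mostly rose. Under low oxygen the factor HIF-1 binds elements with the core ACGTG and raises glycolytic, angiogenic and oxygen-sensing genes. Among 21 tested members 15 rose and 0 fell, the median was 0.46, and 13 and 1 without the pair. Ero1a, the oxidase that forms disulfide bonds in the endoplasmic reticulum, read 5739, 4080, 3375, 3625 and 3171 in water and 11236, 12979, 15829, 16498 and 17859 with valproate (1.91 ± 0.14, adjusted p = 1.85e-11). Vegfa, the vascular growth factor, read 4333, 3533, 2862, 3158 and 2469 in water and 5948, 7606, 7598, 9120 and 9992 with valproate (1.30 ± 0.13, adjusted p = 1.57e-08). Ndrg1, a hypoxia marker, rose by 1.41 ± 0.18 (adjusted p = 9.06e-07), Egln3, a prolyl hydroxylase that marks HIF for destruction, by 1.24 ± 0.19 (adjusted p = 1.16e-05), and Pfkfb3, which makes the activator of phosphofructokinase, by 0.98 ± 0.23 (adjusted p = 0.00242). Pfkfb3 lost its call with the GAPDH ratio as a covariate (0.65, adjusted p = 0.113).

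The water cultures were ordered in these same genes. Water replicate 1 was the highest of the 5 for 17 of the 21 members, against 21.9% of all genes, and water replicate 5 was the lowest for 17, against 19.8%. The signal of the list summed to 289799, 254889, 218156, 245193 and 217085 in the water cultures and to 316622, 313160, 316814, 323285 and 320509 with valproate. The treated cultures were thus close together and above the highest water culture, which itself stood apart from the other 4. The part of this spread in the result was not tested beyond leaving out each array in turn, which gave 14 to 17 higher members and 0 or 1 lower. Of the 17 members with a promoter entry, 8 held ACGTG on either strand within 250 bases before the start, as did 22.2% of 9693 tested genes, 22.3% of those called higher and 24.9% of those called lower. The median change was 0.37 in the members with the motif and 0.51 in those without.

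Of the lists in the plot of calls by list, that of the amino acid response had the lowest median. ATF4 is the transcription factor that cells make when amino acids run short or the endoplasmic reticulum is stressed, and it drives amino acid synthesis, uptake and charging of transfer RNA through elements of the form TGATGNAA. Among its 31 tested members 15 fell and 3 rose, and the median change was -0.34. The counts were 16 and 3 without the pair and 18 and 4 with the covariate. The motif was searched on both strands of the 250 bases before each RefSeq start (build GRCr8). It was present in 7 of the 29 members with a promoter entry, in 1.93% of 9693 tested genes, in 2.85% of 1403 genes called lower and in 1.63% of 1167 called higher. All 7 members with a match were called lower, with a median change of -0.71, against -0.22 for the other 22. The 7 stretches of 60 bases are shown because they carry the element in genes that fell together; capitals mark the match, which all but Slc7a1 hold on the strand opposite to the one printed.
Fgf21: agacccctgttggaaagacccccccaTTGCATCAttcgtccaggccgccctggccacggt
Nupr1: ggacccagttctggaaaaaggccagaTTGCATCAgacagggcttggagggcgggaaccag
Chac1: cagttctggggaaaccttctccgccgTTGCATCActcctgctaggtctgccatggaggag
Trib3: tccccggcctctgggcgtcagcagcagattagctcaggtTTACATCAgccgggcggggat
Slc7a1: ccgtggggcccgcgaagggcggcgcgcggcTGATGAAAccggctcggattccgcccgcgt
Pck2: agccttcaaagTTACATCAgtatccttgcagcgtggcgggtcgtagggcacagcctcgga
Aars1: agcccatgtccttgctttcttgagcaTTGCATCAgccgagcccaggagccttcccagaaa

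These stretches lie at chr1:105221486-105221545 on the minus strand for Fgf21, chr1:190645923-190645982 on the minus strand for Nupr1, chr3:126795938-126795997 on the plus strand for Chac1 and chr3:161275534-161275593 on the minus strand for Trib3. Those of Slc7a1 (chr12:11664428-11664487), Pck2 (chr15:32997603-32997662) and Aars1 (chr19:55908344-55908403) are on the plus strand. The matches begin between 239 and 21 bases before the annotated start. A match is a string of letters and says nothing of binding in these cells. Chac1, which breaks down glutathione, read 5520, 4259, 5823, 5200 and 5256 in water and 3330, 2990, 3577, 2844 and 2723 with valproate (-0.75 ± 0.08, adjusted p = 6.17e-08). Slc7a1, a carrier of cationic amino acids, read 3746, 4112, 3681, 4266 and 4004 in water and 2181, 2035, 2910, 2593 and 2419 with valproate (-0.71 ± 0.09, adjusted p = 8.7e-07). Both had no overlap between the groups. Pck2, the mitochondrial phosphoenolpyruvate carboxykinase, fell by 0.78 ± 0.13 on the log2 scale (adjusted p = 6.42e-05), Trib3, a pseudokinase, by 0.58 ± 0.13 (adjusted p = 0.00157), Nupr1, a stress-induced chromatin protein, by 0.42 ± 0.06 (adjusted p = 9.71e-06) and Aars1, the alanyl-tRNA synthetase, by 0.39 ± 0.08 (adjusted p = 0.000451). In Trib3 and Aars1 treated replicate 3 overlapped the water values, at 5217 and 15090 signal units, and without the pair the changes were larger, -0.71 and -0.50.

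Psph, the last enzyme of serine synthesis, had the largest fall of the ATF4 list. Its signal was 3117, 3637, 3393, 3670 and 3956 in water and 1844, 1985, 1799, 1603 and 1455 with valproate, with no overlap (-1.03 ± 0.09, adjusted p = 3.47e-10). The list was not uniform: Shmt2, the mitochondrial enzyme that moves a carbon from serine to folate, read 14223 to 19525 in water and 24539 to 33425 with valproate (0.78 ± 0.10, adjusted p = 6.03e-07).

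**Figure D5:**
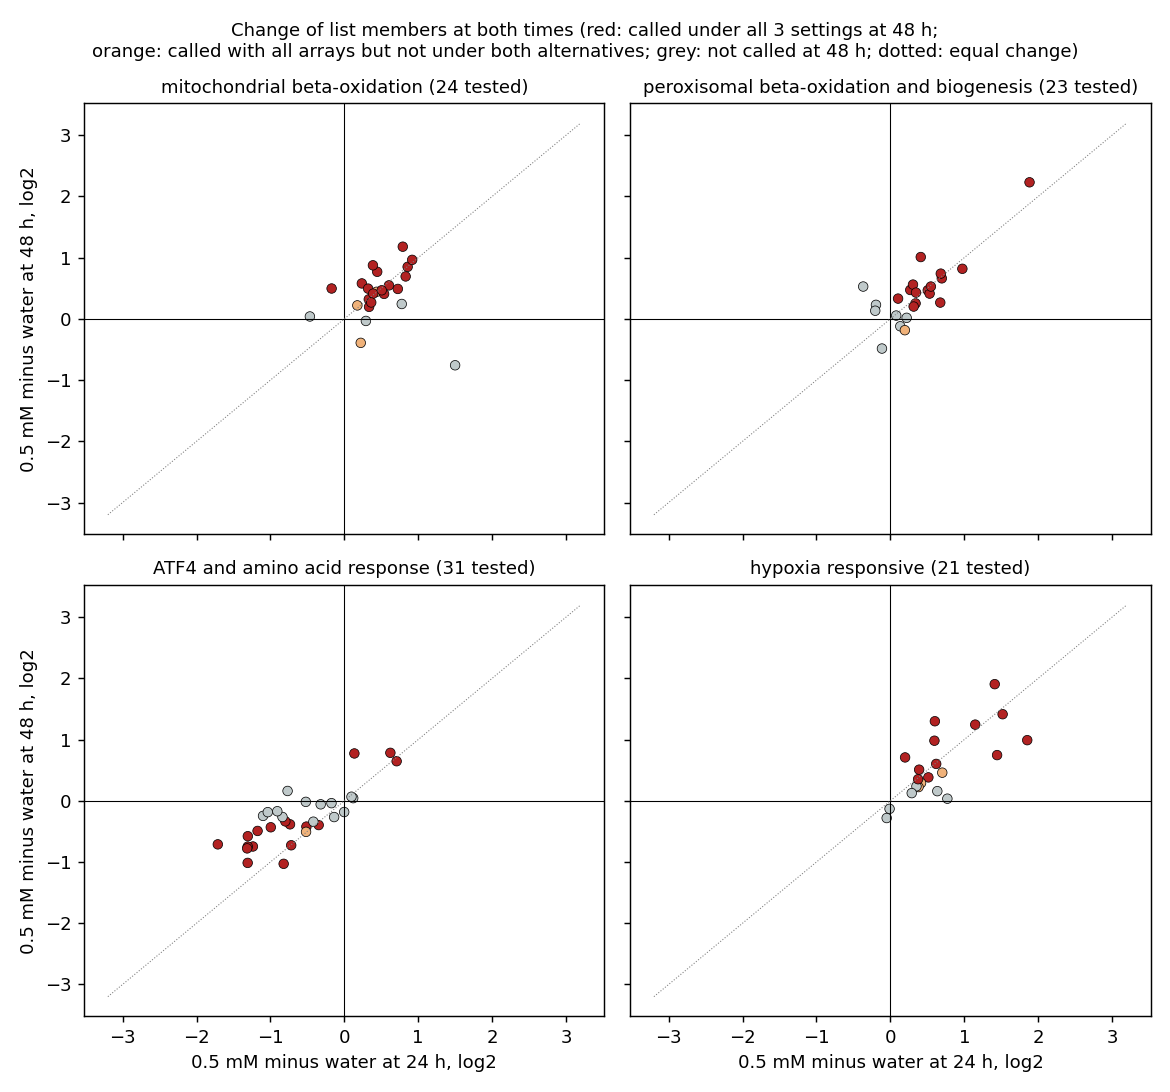
Change at 48 h (y axis, log2) against change at 24 h (x axis, log2) for the tested members of 4 lists; red points are held at 48 h, orange points are called with all arrays but not held, grey points are not called at 48 h, and the dotted line marks equal change. Most members of the fat oxidation and hypoxia lists lie at upper right, and most of the ATF4 list lies at lower left and above the dotted line.

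Enzymes that break down amino acids rose. Of 34 tested amino acid catabolism genes 18 were higher and 3 lower, with a median of 0.32, and without the pair 14 and 3. Gldc, the decarboxylase of the glycine cleavage system, read 4108 to 7558 in water and 11751 to 17904 with valproate (1.34 ± 0.14, adjusted p = 3.92e-08). Uroc1 of histidine breakdown rose by 1.13 ± 0.14 (adjusted p = 2.42e-07) and Bhmt, which remethylates homocysteine, by 0.85 ± 0.28 (adjusted p = 0.0268), while Acmsd of tryptophan breakdown fell by 1.00 ± 0.16 (adjusted p = 1.92e-05). The call of Bhmt ended without treated replicate 1 or without water replicates 3 or 5. Of 22 genes of branched-chain amino acid and propionate breakdown 12 were higher and 1 lower, with the same counts without the pair. Pcca, a subunit of propionyl-CoA carboxylase, rose by 0.73 ± 0.09 (adjusted p = 5.75e-07) and Ivd, the isovaleryl-CoA dehydrogenase, by 0.70 ± 0.09 (adjusted p = 6.18e-07). Of 16 urea cycle and ammonia genes 6 were higher and 2 lower, against 11.9% and 14.1% of all genes tested, and 4 and 1 without the pair. The higher ones included Oat, which makes glutamate semialdehyde from ornithine (1.26 ± 0.12, adjusted p = 2.65e-09), and Gpt, the alanine aminotransferase (0.98 ± 0.13, adjusted p = 2.06e-06).

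Glucose genes went mostly the same way, with 13 of 23 higher and 3 lower, and 9 and 3 without the pair. Pc, the pyruvate carboxylase that feeds oxaloacetate to gluconeogenesis, read 4685, 3402, 2936, 3551 and 2939 in water and 9844, 8693, 14758, 12545 and 13535 with valproate. Every treated culture lay above the highest water culture, and the change was 1.75 ± 0.15 (adjusted p = 4.64e-10). Pck1, the cytosolic phosphoenolpyruvate carboxykinase, read 1604, 830, 694, 957 and 541 in water and 2324, 1767, 2584, 2049 and 1926 with valproate (1.27 ± 0.20, adjusted p = 1.62e-05). Pck1 therefore rose while its mitochondrial counterpart Pck2 fell.

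Bile acid and drug metabolism genes gave some of the widest gaps. Cyp7a1, whose enzyme sets the pace of bile acid synthesis, read 3248, 2691, 3223, 3082 and 3711 in water and 12234, 7597, 10256, 8083 and 7948 with valproate, with no overlap (1.51 ± 0.20, adjusted p = 1.82e-06, and 1.505 without the pair). Cyp8b1, the 12-alpha-hydroxylase that sets the share of cholic acid, rose by 1.09 ± 0.13 (adjusted p = 4.02e-07), and Slc10a1, the sodium-dependent bile acid importer, by 1.08 ± 0.21 (adjusted p = 0.000238). Of 25 genes of bile acid synthesis and transport 7 were higher and 2 lower, against 11.9% and 14.1% of all genes tested. Without the pair 6 were higher and 2 lower, and leaving out 1 array gave 6 or 7 higher and 0 to 2 lower. Cyp3a2, a drug-metabolising P450 of male rats, read 2685, 2999, 2721, 3069 and 3439 in water and 10934, 9932, 9073, 8391 and 7887 with valproate (1.62 ± 0.09, adjusted p = 2.06e-14). Its relative Cyp3a23-3a1 was among the brightest genes, at 74016 to 82430 in water and 76378 to 86093 with valproate, and did not pass the test (0.07 ± 0.06, adjusted p = 0.441). Probesets of related P450 genes can share signal, and what they share was not tested.

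Of 23 CAR and PXR targets 10 were higher and 2 lower, with a median of 0.17, and 8 and 3 without the pair. Among them the carboxylesterase Ces2c rose by 0.87 ± 0.11 (adjusted p = 8.91e-07) and Cyp2c6v1 by 0.55 ± 0.06 (adjusted p = 6.94e-08), and Abcb1a, a drug efflux pump, fell by 0.61 ± 0.14 (adjusted p = 0.00146). Of 7 tested genes of the aryl hydrocarbon receptor list 3 were higher and 2 lower, against 11.9% and 14.1% of all genes tested, and 3 and 1 without the pair. The median of that list was -0.07 with all arrays, -0.16 without the pair and -0.18 with the covariate. Its summed signal overlapped, at 43442 to 62999 in water and 61348 to 66859 with valproate. Cyp1a1 and Cyp1a2, targets of the receptor, rose by 1.02 ± 0.19 (adjusted p = 0.000165) and 1.06 ± 0.12 (adjusted p = 4.63e-08). Water replicate 1 was the highest water culture for both, at 26507 and 4544 signal units against 11105 to 18914 and 2820 to 3075. The receptor gene Ahr was at -1.12 ± 0.34 (adjusted p = 0.0169) and lost its call without the pair (-0.46). Among constitutive P450s Cyp2d3 rose by 1.03 ± 0.13 (adjusted p = 3.4e-07) and Cyp2c13 by 0.85 ± 0.09 (adjusted p = 1.65e-08), and Cyp2c11, the main male-specific form, was at -0.57 ± 0.15 (adjusted p = 0.00407) and was not held.

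Plasma protein genes rose in part. Of 19 coagulation genes 10 were higher and 0 lower, and 9 and 0 without the pair. Examples are F10 (0.62 ± 0.10, adjusted p = 1.74e-05), Klkb1 (0.48 ± 0.10, adjusted p = 0.000933), F12 (0.42 ± 0.08, adjusted p = 0.000186) and Plg, the plasminogen gene (0.41 ± 0.10, adjusted p = 0.00244). Of 30 complement and acute phase genes 11 were higher and 0 lower, and 8 and 0 without the pair. C5 was at 1.25 ± 0.14 (adjusted p = 3.65e-08) and C3 at 0.65 ± 0.11 (adjusted p = 3.28e-05). C3 was at 0.48 without the pair and 0.45 with the covariate, and C5 at 1.22 and 1.19. For C3 treated replicates 1 and 2 read 29204.5 and 33058.2, near the highest water culture at 27828.6. Treated replicates 3, 4 and 5, all of raised actin ratio, read 45808.5 to 48405.3. Afm, which encodes the plasma carrier afamin, was one of the most even results of the comparison. It read 5492, 5227, 5043, 5117 and 5188 in water and 13197, 12606, 13249, 11895 and 11366 with valproate, a change of 1.25 ± 0.06 (adjusted p = 1.4e-15).

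Sterol synthesis genes were called lower more often than higher, in a number that moved with the arrays used. Of 21 tested cholesterol synthesis genes 10 were lower and 2 higher, with a median of -0.19, and 4 lower and 1 higher without the pair. Leaving out each array in turn gave 7 to 11 lower. Idi1, the isopentenyl diphosphate isomerase, read 14613, 17227, 17949, 17823 and 18883 in water and 12688, 11733, 9715, 10167 and 10231 with valproate (-0.67 ± 0.09, adjusted p = 2.19e-06). Acat2, a cytosolic thiolase, fell by 0.61 ± 0.09 (adjusted p = 3.06e-06), Cyp51, which demethylates lanosterol, by 0.50 ± 0.07 (adjusted p = 1.03e-05), and Ebp, a sterol isomerase, was at -0.47 ± 0.11 (adjusted p = 0.00167) and was not held. Water replicate 1 was the lowest water culture for 16 of the 21 genes, against 24.8% of all genes. For fatty acid synthesis 4 of 21 genes were higher and 3 lower, against 11.9% and 14.1% of all genes tested, and 3 and 4 without the pair. Fasn, the fatty acid synthase, was at -0.23 ± 0.12 (adjusted p = 0.202).

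Outside the lists, the largest rises among the brighter genes with no overlap included genes with no known tie to fat oxidation. Fer1l5, of the ferlin family of membrane proteins, read 1217, 874, 586, 770 and 371 in water and 3695, 4988, 7132, 6463 and 6734 with valproate (2.96 ± 0.29, adjusted p = 4.85e-09). Spc24, a subunit of the kinetochore complex NDC80, read 856, 590, 740, 662 and 631 in water and 2894, 2899, 3188, 2698 and 2609 with valproate (2.02 ± 0.11, adjusted p = 1.6e-14). The treated values of Spc24 were even, and those of Fer1l5 were lowest in replicates 1 and 2, the arrays of lowest actin ratio. Faxdc2, a protein with a fatty acid hydroxylase domain, rose by 2.00 ± 0.14 (adjusted p = 1.17e-11) and Slc4a4, a sodium bicarbonate cotransporter, by 1.83 ± 0.16 (adjusted p = 8.45e-10). The others were Tmem255b (2.28), Zap70, a tyrosine kinase known from T cells (1.90), Stc1, the secreted stanniocalcin 1 (1.89), Prkcb, a protein kinase C (1.88), and Vwa1, a matrix protein (1.78). All were held, but Tmem255b, Vwa1, Stc1 and Fer1l5 also read higher by 1.57, 1.15, 1.00 and 0.97 in the water array of high actin ratio at 24 h. For Prkcb the water cultures ran from 568.3 to 3144, with replicate 1 at the top and next to the lowest treated culture at 3626.

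The 12 largest falls among the brighter genes with no overlap were of different kinds. Gpc4, a cell surface heparan sulfate proteoglycan, read 9148, 9476, 7822, 9126 and 8327 in water and 3716, 3037, 3860, 3875 and 3436 with valproate, far apart and even (-1.29 ± 0.06, adjusted p = 1.4e-15). Il1r2, the decoy receptor for interleukin 1, read 2209, 2283, 1257, 1748 and 1014 in water and 240, 406, 670, 463 and 489 with valproate (-1.87 ± 0.21, adjusted p = 6.97e-08). Sema3c, a secreted semaphorin, fell by 1.18 ± 0.15 (adjusted p = 4.82e-07) and Snrpa, a protein of the U1 spliceosome particle, by 1.14 ± 0.20 (adjusted p = 9.29e-05). For these 4 the fall was larger without the pair, at -1.37, -2.11, -1.36 and -1.32.

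The remaining 8 of the 12 falls were smaller without the pair. Golph3, a Golgi protein, read 4164 and 4235 in treated replicates 1 and 2 but 657, 1563 and 2472 in replicates 3, 4 and 5, against 4685 to 5515 in water. Its change of -1.21 ± 0.36 (adjusted p = 0.0149) was -0.50 without the pair (adjusted p = 0.35) and -0.22 with the covariate, and the water array of high actin ratio at 24 h differed from its group by -2.34. Actr2-ps1, a pseudogene probeset that may share signal with its parent gene, was likewise not held (-1.28 with all arrays and -0.62 without the pair). Entr1 (-1.37 and -0.91), Pter (-1.47 and -1.17), Casp12 (-1.31 and -1.05), Gnai1 (-1.14 and -0.81), Exoc1 (-1.14 and -0.73) and Nsmce4a (-1.13 and -0.66) were held at a smaller size without the pair. With the GAPDH ratio as a covariate Entr1 (-0.36, adjusted p = 0.213), Gnai1 (-0.45, adjusted p = 0.0784), Exoc1 (-0.30, adjusted p = 0.205) and Nsmce4a (-0.45, adjusted p = 0.152) lost their call. In these 6 the water array of high actin ratio differed from its group by -1.12 to -2.08.

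Hdac1, a deacetylase that valproate inhibits, showed the same behaviour. It read 1500, 1634, 1947, 1592 and 1971 in water and 1395, 1548, 432, 691 and 923 with valproate. Treated replicates 1 and 2 were near the water values, and the change of -0.92 ± 0.25 (adjusted p = 0.00654) was -0.44 without the pair (adjusted p = 0.21) and -0.28 with the covariate (adjusted p = 0.0758). Of 22 deacetylases and corepressors 4 were higher and 4 lower with all arrays, against 11.9% and 14.1% of all genes tested. Without the pair 1 was higher and 0 lower. Leaving out 1 array gave 2 higher without treated replicate 3 or 4 or water replicate 1, and 2 lower without treated replicate 3. The one that remained was Sirt3, the mitochondrial deacylase, at 0.62 ± 0.08 (adjusted p = 4.27e-07), which read 2922 to 3600 in water and 4598 to 5586 with valproate. Hdac11 (0.89 and 0.58 without the pair) and Sirt2 (0.42 and 0.26) were not held. Cdkn1a, the p21 gene that deacetylase inhibitors raise in many cells, was at 0.47 ± 0.16 (adjusted p = 0.0343) and at 0.23 without the pair (adjusted p = 0.402).

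Of 24 genes known to respond to deacetylase inhibitors 3 were higher and 4 lower, and of 20 neuronal genes 1 was higher and 1 lower. Over all genes tested 11.9% were higher and 14.1% lower. Without the pair the counts were 2 and 1 in the first list and 1 and 0 in the second. Nefm, a neurofilament subunit, was at -0.02 ± 0.23 (adjusted p = 0.974), Crip1, a LIM protein, at 0.09 ± 0.22 (adjusted p = 0.841), Soat1, which esterifies cholesterol, at 0.34 ± 0.37 (adjusted p = 0.581) and Hamp, the hepcidin gene, at -0.03 ± 0.10 (adjusted p = 0.909). The mean levels of Crip1 and Soat1 in the 48 h water cultures (6.16 and 6.97 on the log2 scale) did not reach the filter. The neuronal isoform of enolase, Eno2, rose by 1.35 ± 0.17 (adjusted p = 8.44e-07), Nefl, the light neurofilament, was at -0.87 ± 0.26 (adjusted p = 0.0141) and was not held, and Ckb, the brain creatine kinase of the inhibitor-responsive list, was at -1.03 ± 0.37 (adjusted p = 0.0412) and was not held.

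The effect at 48 h was set beside that of the same dose at 24 h, which shares no sample with it and whose water group holds the array of high actin ratio. At 24 h 2500 probesets (11.5%) were higher and 2664 (12.3%) lower, and 1473 genes (12.7%) were higher and 1871 (16.1%) lower. In both comparisons 468 genes were higher, 33.8% of those at 48 h and 31.8% of those at 24 h, and 563 were lower, 34.5% and 30.1%. Of the held genes 50.3% of the higher and 49.1% of the lower were called the same way at 24 h. Another 132 genes were higher at 48 h and lower at 24 h, and 46 the reverse. Centring each array on its median moved the median change of all genes at 24 h from 0.02 to -0.18 and gave 438 higher and 3624 lower genes there, so small 24 h changes depend on the scaling.

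Most fat oxidation genes rose at both times, and some differed between them. The mitochondrial list had 20 higher and 1 lower at 24 h with a median of 0.41, and the peroxisomal list 15 and 0 with a median of 0.32. After median centring the medians at 24 h were 0.21 and 0.12. Ehhadh was at 1.88 and Cyp4a1 at 1.74 at 24 h, and neither differed between the times beyond error (difference 0.35, adjusted p = 0.146, and -0.15, adjusted p = 0.348). The difference between the times passed the test for 10 of the 24 mitochondrial members, 5 toward a higher and 5 toward a lower value at 48 h, and for 6 of the 23 peroxisomal members, 4 higher and 2 lower, against 12% and 9.69% of all genes. The changes of Hadha, Cpt2 and Acox2 were larger at 48 h, by 0.49, 0.67 and 0.60. Without the 3 arrays of highest actin ratio 1 mitochondrial and 2 peroxisomal members passed, and with the GAPDH ratio as a covariate 1 and 0. The ATF4 list fell more at 24 h, with 24 lower and 2 higher and a median of -0.74. The difference between the times passed the test for 14 of its 31 members, in all 14 toward a higher value at 48 h, against 1391 (12%) of all genes in that direction, but for 9 without the 3 arrays of highest actin ratio and for 3 with the GAPDH ratio as a covariate. Slc7a1 was at -1.71 at 24 h and -0.71 at 48 h, a difference of 1.00 (adjusted p = 2.33e-05).

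Cyp7a1 was called at the later time and not at the earlier. It was at -0.09 at 24 h (adjusted p = 0.789) and 1.51 at 48 h, a difference of 1.597 (adjusted p = 0.000492), which was 1.65 with the actin ratio as a covariate (adjusted p = 0.00644). Cyp3a2 (difference 0.94, adjusted p = 3.23e-05), Afm (0.58, adjusted p = 8.41e-05) and Pc (1.24, adjusted p = 0.000306) also rose more at 48 h, and with the covariate the differences were 1.08, 0.61 and 0.75. Sterol synthesis was lower at 24 h (14 of 21) and 11 members differed between the times, all toward a higher value at 48 h, and 11 did so without the 3 arrays of highest actin ratio. Examples are Cyp51 (difference 0.67, adjusted p = 0.000141) and Acat2 (0.57, adjusted p = 0.00195). By probeset the difference between the times passed for 2135 (9.83%) toward a higher and 2098 (9.66%) toward a lower value at 48 h, and by gene for 1391 (12%) toward a higher and 1125 (9.69%) toward a lower value at 48 h. Without the 3 arrays the counts were 523 and 368, with the GAPDH ratio as a covariate 81 and 54, and with median centring 2426 and 208. The 5 named genes with the largest differences in each direction were dim, with signals at 48 h between 32.8 and 1233 units: Zfp672 (2.54), Nfic (2.39), Actmap (2.40), Trim36 (2.58) and Inf2 (2.63) upward and Cryaa (-2.68), Chchd4l1 (-2.56), Prokr1 (-2.88), Fam81a (-2.28) and Dnali1 (-2.55) downward.

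At 48 h 5763 probesets (26.5%) were higher and 4277 (19.7%) lower at 10 mM than at 0.5 mM. By gene the doses differed in 3479 (30.0%) that were higher and 2761 (23.8%) that were lower at 10 mM than at 0.5 mM. Ehhadh stood at 13150 signal units on average at 10 mM and 11337 ± 1796 (SD, n = 5) at 0.5 mM, a difference of 0.21 (adjusted p = 0.161), and Hadha differed by -0.10 (adjusted p = 0.326). The peroxisomal list was lower at 10 mM for 13 of 23 members and higher for 3, and the mitochondrial list for 12 and 4 of 24. Several genes that did not pass against water at 0.5 mM with all arrays differed widely between the doses. Acot1 was higher at 10 mM by 6.38 (adjusted p = 3.51e-16), Crip1 by 6.22, Hamp by 4.86, Soat1 by 4.66, Nefm by 3.81 and Pdk4 by 2.85. The size for Acot1, Crip1 and Soat1 rests on dim values in the lower dose. Cyp7a1 differed by -3.17 (adjusted p = 3.73e-14) and Fgf21 higher by 2.55 (adjusted p = 7.09e-17), so for both the 0.5 mM cultures lay on the other side of water from the 10 mM cultures, whose means were 1090 and 25364 against 3191 and 8782 in water. Of the hypoxia list 14 of 21 members were lower at 10 mM than at 0.5 mM, and of the 34 amino acid catabolism genes 29 were lower and 0 higher.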

How the data were processed

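Each of the 30 cultures gave 1 Affymetrix rat array. The deposited values are MAS5 signal intensity per probeset on a linear scale, per the submitters' processing notes, and the deposited arrays share one trimmed mean, as the values show; no source used here gives its version or settings. The number of arrays, 5 a group, limits the precision.

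From these intensities log2(signal + 16) was computed for 31042 probesets, without 57 controls. Probesets at or above the 30th percentile of mean log2 value (7.39) were tested, 21729 in all, in 1 model over the 6 groups with limma 3.58.1 (R 4.3.3; lmFit, eBayes with a trend, 24 residual degrees of freedom), with Benjamini-Hochberg adjustment over all probesets tested and calls at adjusted p under 0.05. Errors of changes are standard errors of this model. Symbols came from the platform annotation: 20826 probesets had 1 symbol, 436 several and 9780 none. A gene is its probeset of highest mean, which gives 11604 genes. The procedure was tested on simulated data.

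The members, gene lists and tests were chosen with earlier results of these data known. Named genes are the 12 largest rises and falls among called, non-overlapping genes whose higher mean reached the median probeset (9.64), up to 4 called members of each list, a short fixed list, and up to 5 genes per direction of the difference between times; Cd36, Dld, Pex2, Chac1, Trib3, Slc7a1, Nupr1 and Aars1 lie outside that rule, the last 5 named for a motif match, and were chosen after their values were seen. Alternatives were other pseudocounts, scalings, filters, covariates, array weights, a replicate block and left-out arrays. The removal of the 3 arrays of highest actin ratio was added after seeing the data. Arrays were not paired: arrays of the same run of the title numbers had correlations of deviations between -0.0821 and 0.0741. Promoter sequences are from RefSeq (GRCr8).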

Additional observations from a re-analysis of the deposited data

Results flagged for a closer look

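In 15 values a single culture stood far from the other 4 of its group by Dixon's criterion, of 268 values tested, and chance gives about 1 in 20. In water replicate 1 these were the beta-actin ratio (1.329) and the log2(signal + 16) of Gnai1 (11.413), Cyp1a2 (12.155), Fasn (13.269), Acat2 (13.045), Cyp51 (13.331) and Sirt2 (10.685). In other water cultures they were Cyp2c6v1 (14.243, replicate 2), Chchd4l1 (6.204, replicate 2), Cyp2c11 (14.740, replicate 3), Rpl18 (15.413, replicate 3) and Inf2 (8.070, replicate 4). In treated cultures they were Plin4 (7.749, replicate 1), Faxdc2 (12.725, replicate 3) and Nefl (7.315, replicate 5).

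For 62 named genes the effect at 48 h minus the effect at 24 h passed the test of that difference (limma, adjusted p under 0.05); 18 of them also passed with the actin covariate and 31 without the 3 arrays of highest actin ratio. Values are differences on the log2 scale. In lipid genes they were Cpt1a (0.506), Cpt1b (0.448), Cpt2 (0.668), Hadha (0.488), Acox2 (0.599), Acsm2 (0.567), Pank1 (0.441), Lpin2 (0.665), Apob (0.523), Fasn (0.795), Cd36 (-1.134), Dld (-0.614) and Pex2 (-0.381). In amino acid, glucose and hypoxia genes they were Pck2 (0.538), Chac1 (0.558), Trib3 (0.727), Slc7a1 (1.000), Aars1 (0.351), Acmsd (-1.187), Pcca (0.364), Pc (1.243) and Vegfa (0.697). In sterol, bile acid and P450 genes they were Acat2 (0.566), Cyp51 (0.670), Cyp7a1 (1.597), Cyp3a2 (0.938), Cyp1a2 (0.517), Cyp2d3 (0.714) and Cyp2c13 (0.512). In secreted proteins they were F10 (0.385), Plg (0.421), C5 (0.735), C3 (0.849), Afm (0.583) and Hamp (-0.478). In deacetylase, neuronal and cell cycle genes they were Hdac1 (-1.162), Hdac11 (1.098), Sirt2 (0.612), Cdkn1a (0.796), Nefl (-1.090), Gadd45a (-0.649), Psmb10 (-0.587) and Rpl18 (-0.336), the last a ribosomal protein gene and the one before it a proteasome gene. Among genes with the largest changes at 48 h they were Il1r2 (-1.505), Pter (-1.037), Entr1 (-1.802), Actr2-ps1 (-1.845), Golph3 (-1.737), Exoc1 (-1.209), Snrpa (-0.956), Nsmce4a (-1.519) and Faxdc2 (1.140). Among dim genes they were Cryaa (-2.678), Chchd4l1 (-2.563), Prokr1 (-2.879), Fam81a (-2.280), Dnali1 (-2.547), Zfp672 (2.541), Nfic (2.389), Actmap (2.400), Trim36 (2.580) and Inf2 (2.635).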

How the results depend on the processing

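Counts here are probesets. The beta-actin difference of 0.589 ran from 0.353 to 0.781 when each array was left out, with the highest without treated replicate 2 (exact permutation p = 0.0317), and the GAPDH difference was 0.159. At 48 h, 2216 higher and 2581 lower became 1348 and 1699 without the pair and 1245 and 1701 with the GAPDH covariate; the replicate block gave 2238 and 2658. Median centring gave 773 higher and 5314 lower at 24 h, from 2500 and 2664. The difference between the times (2135 higher, 2098 lower) gave 392 and 222 with the actin covariate, 130 and 74 with the GAPDH covariate, 959 and 742 without the pair, 823 and 668 without the 3 arrays, 3781 and 645 with median centring, and 1267 lower with only the compared groups. Between the doses, median centring moved 5763 higher and 4277 lower to 4695 and 5062. Signs turned in genes near 0 or not held: Golph3 was at 0.060 and Cdkn1a at -0.068 with the GAPDH covariate, Cyp3a23-3a1 at -0.041 with quantile normalization, and Hamp at 0.014, Plin2 at -0.009 and Nefm at 0.010 with array weights. Cpt1a was at -0.185 with the actin covariate, -0.251 with the GAPDH covariate and -0.200 without the pair or the 3 arrays. With each array left out, Hamp ran from -0.094 to 0.045, Cpt1a from -0.108 to 0.130, Plin2 from -0.011 to 0.032, Soat1 from -0.034 to 0.552 and Nefm from -0.196 to 0.123. The cause was not tested.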

Other observations

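Genes for making and removing proteins were called lower more often than higher at 48 h. Of 32 cytosolic ribosomal protein genes 0 were higher and 11 lower, and 5 were lower without the pair. Leaving out 1 array gave 6 lower without treated replicate 4, 7 without treated replicate 5 or water replicate 1 or 2, and 8 to 16 in the others. The signal of the list summed to 1423980, 1314638, 1304535, 1243286 and 1192767 in the treated cultures and to 1334538 to 1501689 in water, so treated replicate 1 lay within the water range. Treated replicate 1 was the highest treated culture for 22 of the 32 and treated replicate 5 the lowest for 24. Rpl18, a protein of the large subunit, read 48507, 48120, 43601, 47145 and 47741 in water and 41077, 37766, 35829, 34858 and 33455 with valproate, with no overlap, and fell by 0.36 ± 0.06 on the log2 scale (limma, adjusted p = 2.05e-05). At 24 h 7 members of that list were higher and 0 lower with the deposited scaling, and 0 were higher and 1 lower with median centring. Of 35 proteasome genes 0 were higher and 12 lower, and 9 were lower without the pair. Leaving out 1 array gave 6 lower without treated or water replicate 5, 20 without treated replicate 1, and 8 to 13 in the others. The proteasome list summed to 597690, 548121, 527394, 501952 and 484368 in the treated cultures and to 547372 to 603001 in water, so treated replicates 1 and 2 lay within the water range. Treated replicate 1 was the highest treated culture for 23 of the 35 and treated replicate 5 the lowest for 19. Psmb10, a subunit of the immunoproteasome, read 2127, 2317, 2263, 2034 and 2386 in water and 1359, 976, 1389, 1123 and 1017 with valproate (-0.93 ± 0.11, adjusted p = 9.7e-08). Of 44 oxidative phosphorylation genes 4 were higher and 0 lower at 48 h, against 11.9% of all genes higher, and 2 were higher without water replicate 3. At 24 h 30 were higher and 0 lower with the deposited scaling, and 0 and 1 with median centring.

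Of 18 p53 and DNA damage genes 3 were higher and 6 lower, against 11.9% and 14.1% of all genes tested, and 0 and 7 without the pair. Gadd45a, a growth arrest gene, read 11898 to 14767 in water and 4683 to 10708 with valproate, and fell by 0.94 ± 0.17 (adjusted p = 8.85e-05), or by 0.69 without the pair. Of 29 cell cycle genes 2 were higher and 5 lower, against the same shares of all genes, and 1 and 3 without the pair. Pcna, the sliding clamp of DNA polymerases, fell by 0.61 ± 0.10 (adjusted p = 5.22e-05), and its lowest treated values, 4176 and 4671, were those of the pair. Tat, the tyrosine aminotransferase and a hepatocyte marker, fell by 0.63 ± 0.11 (adjusted p = 5.47e-05), with its lowest value, 10072, in treated replicate 3. With the actin ratio as a covariate the falls were smaller, at -0.57 for Gadd45a, -0.40 for Pcna and -0.41 for Tat, and each kept its call. The water array of high actin ratio at 24 h differed from its group by -0.88, -0.48 and -0.24 in these genes.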
